A study of Rattus norvegicus with 8 samples.

Results

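The focal adhesion and actin-linker genes are a list of 46 genes for the proteins that sit between integrins and the actin cytoskeleton, together with the kinases, adaptors and LIM-domain proteins that gather at the same sites. Integrin subunits themselves were not on the list. The genes were chosen by name, with earlier results of these data known, and 45 of the 46 had a row among the 31699 rows of the expression matrix. All 45 passed the filter of a mean of at least 1 TPM over the 8 samples, where TPM is the length-corrected share of a transcript in its sample, and they were tested among 13103 genes in all. The remaining gene, Palld, had no row by that name.

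A focal adhesion is the site where a cell grips the extracellular matrix. Talin and kindlin bind the integrin tail, vinculin ties talin to actin, and alpha-actinin and filamin crosslink the actin filaments behind it. Pulling on the site opens talin and draws in vinculin and zyxin, while focal adhesion kinase, Src, Cas and paxillin pass the signal on, and PDZ-LIM and FHL proteins sit on the stress fibres that carry the load. The annulus fibrosus is the fibrous ring of the intervertebral disc, and its cells are stretched whenever the spine bends.

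RNA-seq was performed in annulus fibrosus cells (AFCs) of Sprague Dawley rats, cultured to the third generation and exposed in both groups to cyclic mechanical stretch (CMS) at 20% elongation and 0.5 Hz for 36 h. The study asked what Piezo1, a mechanosensitive ion channel that lets calcium into the cell, changes in stretched AFCs. Before CMS the cells received a control lentivirus (pLVX-shRNA-Puro, Lv-Ctrl, 4 samples) or a lentivirus with a short hairpin RNA against Piezo1 (pLVX-shRNA-Puro-Piezo1, Lv-Piezo1, 4 samples) at an MOI of 20 for 24 h. Each isolation pooled the tissue of 8 rats, so a sample is a culture from pooled animals, and no unstretched or uninfected sample was analysed here. The study's methods describe its rats as male and 3 months old. No pair of samples held identical values. The study's methods describe separate in vitro repeats, each from an isolation whose cells received the different treatments. Which isolation a sample came from was not given, so the main fit had no pairing. A fit with the replicate number as a block is given below. The p-values measure the spread between these cultures.

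On the deposited RNA values the targeted gene went against its label. The study also reports its own check of the knockdown, which was not examined here. Piezo1 measured 31.1, 32.99, 26.7 and 29.5 TPM in the 4 Lv-Ctrl samples and 38.1, 37.7, 40.2 and 41.4 TPM in the 4 samples labelled Lv-Piezo1, which lay above every Lv-Ctrl sample. Higher and lower therefore refer throughout to the samples as labelled, with Lv-Ctrl as the base. Over all tested genes the median log2 fold change was 0.14 in favour of Lv-Piezo1, which median-ratio scaling of the samples moved to -0.0046. Within Lv-Ctrl, replicate 3 held the lowest value for 30 of the 45 genes, against 48.5% of all tested genes. Within Lv-Piezo1, replicate 2 held the lowest value for 30 of the 45 genes and replicate 4 the highest for 29, against 35.0% and 42.7% of all tested genes. Lv-Ctrl replicate 2 stood apart in the skeletal muscle transcripts Acta1 and Ckm, at 22.1 and 14.0 TPM. The other Lv-Ctrl samples held at most 2.14 and 1.93 TPM, and the Lv-Piezo1 samples 7.94 to 9.83 and 1.19 to 2.18 TPM. Myog was listed at 0 in all samples. Read depth cannot be had from TPM, and only the spread of 4 samples shows how precise a value is.

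Markers were examined for the cell types a disc culture can hold. The fibroblast collagens Col1a1 and Col1a2 were at 2117 TPM or more in every sample, whereas the tendon-type marker Tnmd was listed at 0 in 7 of 8 samples and 0.08 TPM in the other. The 10 annulus fibrosus and fibroblast markers summed to 13910 to 16520 TPM in Lv-Ctrl and 15550 to 16900 TPM in Lv-Piezo1, and of the 9 tested 4 rose and 4 fell at an adjusted p below 0.05. Smooth muscle and pericyte markers changed most in summed level. Of 13 listed, 11 were tested, 9 rose and 2 fell, and their sum went from 949 to 996 TPM in Lv-Ctrl to 4817 to 4976 TPM in Lv-Piezo1, mainly through Acta2 and Tagln, while Kcnj8 and Abcc9 fell and Rgs5 stayed at or under 0.35 TPM. Macrophage markers summed to 21.3 to 23.3 and 37.1 to 41.9 TPM, mostly from Cd14 (means of 20.9 and 25.8 TPM). Of the others, Cd68 was higher, Adgre1 was listed at 0, Ptprc at 0 or 0.01 TPM, and Csf1r at 0.2 TPM or less. Endothelial markers summed to less than 1 TPM in each sample. Chondrocyte-like and nucleus pulposus markers summed to 35.7 to 41.6 and 55.6 to 59.4 TPM, mostly from Acan (means of 31.6 and 47.1 TPM). Col2a1 stayed at or under 0.59 TPM and Tbxt was listed at 0. These marker levels moved with the groups beside the results below, and their part in those results was not tested. In bulk samples such as these, fewer cells of a type and less RNA per cell cannot be told apart.

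Most focal adhesion and actin-linker genes were higher in the samples labelled Lv-Piezo1. Vinculin had the largest log2 fold change, and the muscle-type LIM and actin-bundle genes had the largest median among the roles. The roles were drawn with earlier results of these data known, so this ranking depends in part on how they were drawn. The 45 genes together measured 4410, 4398, 4052 and 4210 TPM in Lv-Ctrl and 6655, 6553, 6771 and 6905 TPM in Lv-Piezo1, or 0.405 to 0.441% against 0.655 to 0.691% of all TPM. The lowest Lv-Piezo1 sample lay well above the highest Lv-Ctrl sample. With limma and Benjamini-Hochberg adjustment over all 13103 genes, 31 of the 45 genes rose and 2 fell at an adjusted p below 0.05, and 12 did not pass. Of all tested genes, 41.9% rose and 16.3% fell by the same rule. Asking in addition for a log2 fold change of at least 1 in either direction, the threshold of the study's methods, left 6 genes that rose (Vcl, Pdlim5, Fhl1, Flna, Pdlim3 and Actn4) and 1 that fell (Ptk2b). The share of all tested genes past that threshold was 4.91% for rises and 2.76% for falls, so the single fall was no more than the background. Every Lv-Piezo1 sample lay above every Lv-Ctrl sample for 32 genes and below for 2, against 39.8% and 14.5% of all tested genes.

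**Figure D1:**
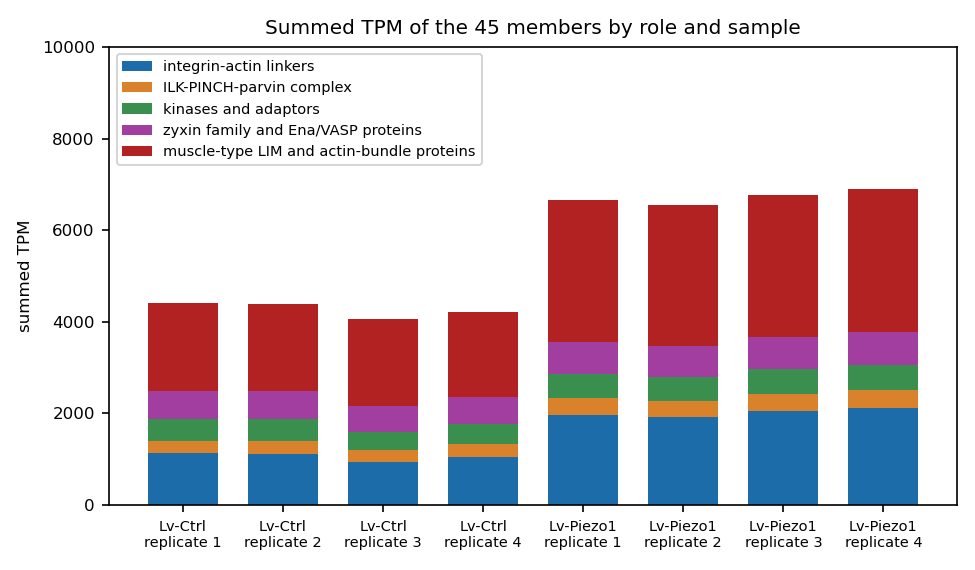
Summed TPM (y axis, linear from 0) of the 45 genes in each of the 8 samples (x axis), stacked by role. The Lv-Ctrl bars end between 4052 and 4410 TPM and the Lv-Piezo1 bars between 6553 and 6905 TPM, and the linker and muscle-type layers account for most of the added height.

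The median log2 fold change of the 45 genes was 0.40, beside 0.14 over all tested genes, and 33 of the 45 lay above that all-gene median. These log2 values are on the log2(TPM + 1) scale, which understates the change of genes with low values. Median-ratio scaling, which sets the all-gene median close to 0, brought the median of the 45 genes to 0.24 and left 32 of them above 0. Under that scaling 25 genes rose and 7 fell at an adjusted p below 0.05, in place of 31 and 2. After quantile normalization 29 rose and 7 fell. The genes counted as falling under both scalings, beside Ptk2b and Lims2, were Ajuba, Src, Nedd9, Limd1 and Lpp. Past the fold threshold, 4 rises and 1 fall were left under median-ratio scaling, when Actn4 and Pdlim3 no longer passed, and 5 rises and 1 fall under quantile normalization, when Pdlim3 no longer passed.

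**Figure D2:**
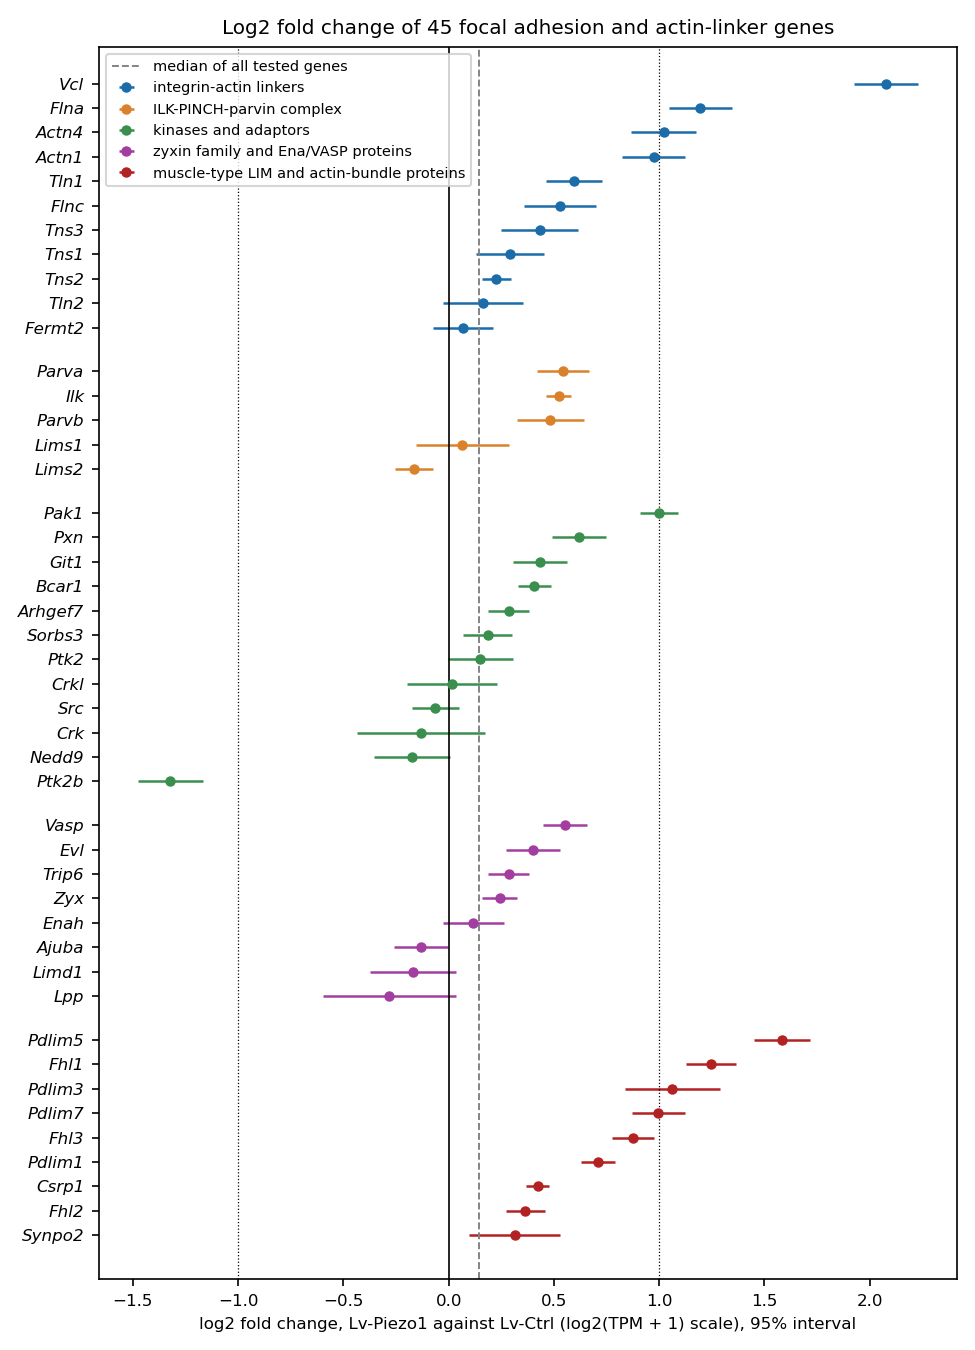
Log2 fold change of each of the 45 genes (points, on the log2(TPM + 1) scale, x axis) with its 95% interval (bars), grouped and coloured by role and ordered within each role. The dashed line is the all-gene median of 0.14 and the dotted lines mark -1 and 1. Vcl stands farthest right at 2.08, Ptk2b is alone at the left at -1.32, and all 9 muscle-type genes have intervals above 0.

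Promoter sequences of RefSeq (assembly GRCr8, from 250 bases before to 50 after each start) were matched by symbol for 37 of the 46 genes, with 49 promoters in all. Parva, Ptk2, Tns1, Pdlim3, Fermt2, Ptk2b, Lpp, Sorbs3 and Actn4 had no entry. They were searched on both strands for the CArG box, the motif bound by serum response factor (SRF), and for the TEAD core CATTCC, which reads GGAATG on the other strand, the motif bound by the partners of YAP. These factors are known to act on many cytoskeletal genes. A CArG box was found in 4 of the 49 promoters (8.16%), in 1 of Fhl1, both of Fhl2 and that of Trip6, and in 1.64% of all 33469 promoters. A TEAD core was found in 10 of the 49 (20.4%) and in 14.2% of all promoters. The 4 promoters with a CArG box are given up to the start, with that of Vcl, the gene with the largest rise. The Vcl promoter held a TEAD core 167 bases before the start and no whole CArG box (CC, 6 of A or T, GG). Its sequence begins with cttataagg, which lacks only the first C of such a box. The base before the window was not read, so a box across that edge remains undecided. CArG boxes and TEAD cores are in capitals and do not overlap. A match is a stretch of letters and no evidence of binding.
Fhl1 (chrX:139638246-139638495, plus strand): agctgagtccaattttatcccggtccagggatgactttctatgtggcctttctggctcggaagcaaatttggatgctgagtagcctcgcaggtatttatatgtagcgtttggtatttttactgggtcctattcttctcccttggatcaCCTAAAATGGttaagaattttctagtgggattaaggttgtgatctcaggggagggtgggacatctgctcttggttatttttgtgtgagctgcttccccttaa
Fhl2 (chr9:52923327-52923576, minus strand): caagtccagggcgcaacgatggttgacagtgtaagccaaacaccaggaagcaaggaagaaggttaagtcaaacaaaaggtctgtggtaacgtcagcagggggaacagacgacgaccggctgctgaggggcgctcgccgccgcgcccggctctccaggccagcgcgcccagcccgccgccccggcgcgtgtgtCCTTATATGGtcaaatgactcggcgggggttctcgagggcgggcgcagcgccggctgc
Fhl2, other start (chr9:52954541-52954790, minus strand): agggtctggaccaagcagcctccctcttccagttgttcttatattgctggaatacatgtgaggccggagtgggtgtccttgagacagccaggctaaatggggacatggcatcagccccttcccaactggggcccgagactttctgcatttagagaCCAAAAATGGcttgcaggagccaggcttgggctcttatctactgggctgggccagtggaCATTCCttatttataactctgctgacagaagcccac
Trip6 (chr12:25022709-25022958, plus strand): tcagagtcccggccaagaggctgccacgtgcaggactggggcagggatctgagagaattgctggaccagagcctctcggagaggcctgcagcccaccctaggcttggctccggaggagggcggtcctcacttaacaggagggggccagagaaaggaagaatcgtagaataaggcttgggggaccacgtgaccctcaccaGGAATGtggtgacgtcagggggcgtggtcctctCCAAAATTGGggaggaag
Vcl (chr15:3404801-3405050, minus strand): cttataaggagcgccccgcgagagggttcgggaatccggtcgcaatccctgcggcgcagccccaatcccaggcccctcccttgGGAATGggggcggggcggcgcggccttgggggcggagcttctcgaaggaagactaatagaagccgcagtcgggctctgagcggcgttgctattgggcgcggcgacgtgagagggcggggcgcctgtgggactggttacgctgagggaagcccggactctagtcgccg
The CArG box began 102 bases before the start in Fhl1, 58 and 95 bases before it in the promoters of Fhl2, and 18 bases before it in Trip6. The second of the Fhl2 promoters and that of Trip6 also held a TEAD core, 36 and 51 bases before the start. The 3 genes differed in size of change, with log2 fold changes of 1.25 for Fhl1, 0.36 for Fhl2 and 0.29 for Trip6.

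Among the 11 integrin-actin linkers, 9 rose at an adjusted p below 0.05, none had a log2 fold change below 0, and 3 passed the fold threshold. The shares of all tested genes were 41.9% for rises and 4.91% for rises past the fold threshold. Their median log2 fold change was 0.53, and their summed level was 933 to 1125 TPM in Lv-Ctrl and 1916 to 2129 TPM in Lv-Piezo1. Vinculin (Vcl), which is recruited to stretched talin and binds actin, measured 92.0, 91.3, 75.7 and 87.7 TPM in Lv-Ctrl and 361, 345, 371 and 396 TPM in Lv-Piezo1. No sample of either group came near the other group. The means were 86.7 ± 7.53 and 368 ± 21.4 TPM (SD, n = 4 each), 4.25 times as high in Lv-Piezo1, with a log2 fold change of 2.08 (standard error, SE, of 0.07, adjusted p = 2.2e-08 from limma). An exact two-sided permutation test on Vcl gave p = 0.029, the smallest that 4 samples against 4 allow, and it gave that same p for each gene described below as not overlapping.

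Filamin A (Flna), which crosslinks actin and binds integrin tails, measured 129, 129, 105 and 117 TPM in Lv-Ctrl and 269, 264, 280.1 and 288 TPM in Lv-Piezo1. Its groups lay far apart, with means of 120.0 ± 11.4 and 275 ± 10.9 TPM. The log2 fold change was 1.195 (SE 0.07, adjusted p = 6.7e-07). Alpha-actinin 4 (Actn4), an actin crosslinker of non-muscle cells, measured 243, 243, 198 and 226 TPM in Lv-Ctrl and 448, 437, 472 and 489 TPM in Lv-Piezo1. Lv-Ctrl replicate 3 was the lowest sample for both genes. The log2 fold change of Actn4 was 1.02 (SE 0.07, adjusted p = 2.2e-06), at the edge of the fold threshold: it was 0.96 without Lv-Ctrl replicate 3 and 0.99 without Lv-Piezo1 replicate 4. Alpha-actinin 1 (Actn1) lay just under the threshold, at 0.97, and passed it at 1.01 without Lv-Ctrl replicate 1.

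The other linkers had smaller log2 fold changes. Talin 1 (Tln1), the main integrin activator, went from 82.3 ± 6.57 to 125 ± 5.16 TPM, a log2 fold change of 0.60, and filamin C (Flnc), the filamin of muscle, from 55.9 ± 5.98 to 80.9 ± 3.73 TPM, a log2 fold change of 0.53. The tensins, which bind integrin tails in mature fibrillar adhesions, had log2 fold changes of 0.43 (Tns3), 0.29 (Tns1) and 0.23 (Tns2), and of these Tns1 and Tns2 did not pass after median-ratio scaling. Kindlin 2 (Fermt2), the partner of talin in integrin activation, was abundant at 163 ± 14.6 and 171 ± 5.54 TPM, and its log2 fold change was 0.07 with a 95% interval from -0.07 to 0.21 (adjusted p = 0.38). Talin 2 (Tln2), the low-level talin of these cells at 4.39 and 5.02 TPM, did not pass either, although its groups did not overlap (log2 fold change 0.16, interval -0.03 to 0.35, adjusted p = 0.12).

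The complex of integrin-linked kinase, PINCH and parvin, which joins integrins to actin through a pseudokinase scaffold, moved in part. Integrin-linked kinase (Ilk) measured 148, 146, 150.1 and 145 TPM in Lv-Ctrl and 210.0, 209.6, 215 and 214 TPM in Lv-Piezo1. It had some of the tightest replicates of the list, and its log2 fold change was 0.52 (SE 0.03, adjusted p = 3.7e-07). Alpha-parvin (Parva) measured 47.9, 50.8, 42.2 and 46.5 TPM against 69.96, 66.3, 68.8 and 69.3 TPM, a log2 fold change of 0.54 (SE 0.05, adjusted p = 3.1e-05). Neither gene overlapped between the groups, and beta-parvin (Parvb) rose by a log2 fold change of 0.48.

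Neither PINCH gene, whose LIM domains bind Ilk, passed as a rise. Lims1 measured 22.4 ± 2.18 TPM in Lv-Ctrl and 23.5 ± 3.10 TPM in Lv-Piezo1, with a log2 fold change of 0.07, a 95% interval from -0.16 to 0.29 and an adjusted p of 0.60. Lims2 measured 33.8 ± 0.863 TPM and 30.0 ± 1.13 TPM, and fell without overlap by 0.17 on the log2 scale (adjusted p = 0.0063). Of the 5 genes of this complex 3 rose (60%), 1 fell (20%) and 1 did not pass, beside 41.9% and 16.3% of all tested genes. None of them passed the fold threshold, and the median log2 fold change was 0.48.

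**Figure D3:**
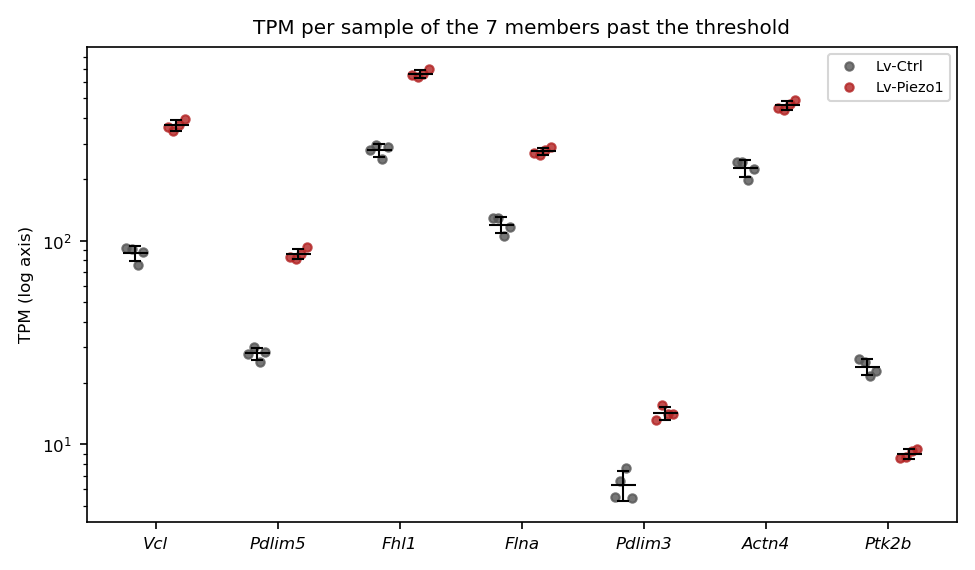
TPM of the 7 genes past the adjusted p and fold threshold in each sample (points, log y axis), with the mean and SD of the 4 samples of a group (bars). For 6 genes the 4 Lv-Piezo1 points lie above the 4 Lv-Ctrl points, and for Ptk2b they lie below.

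Of the 12 kinases and adaptors, 6 rose, 1 fell and 5 did not pass at an adjusted p below 0.05, counts that lay near the shares of all tested genes (41.9% and 16.3%), and their median log2 fold change of 0.17 was close to the all-gene median. Pyk2 (Ptk2b), the calcium-responsive relative of focal adhesion kinase, measured 26.2, 25.4, 21.7 and 22.9 TPM in Lv-Ctrl and 8.55, 8.62, 9.30 and 9.51 TPM in Lv-Piezo1. Each Lv-Ctrl sample was above 20 TPM and each Lv-Piezo1 sample under 10 TPM. The means were 24.1 ± 2.08 and 8.995 ± 0.482 TPM, and the log2 fold change was -1.32 (SE 0.07, adjusted p = 4.3e-07). Focal adhesion kinase itself (Ptk2) stayed between 17.7 and 22.1 TPM over the 8 samples, with overlapping groups, a log2 fold change of 0.15 and an interval from -0.0035 to 0.30 (adjusted p = 0.086). It passed as a rise without Lv-Ctrl replicate 2 (0.20, adjusted p = 0.027) or Lv-Piezo1 replicate 2 (0.19, adjusted p = 0.047).

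The Cas protein Bcar1, a scaffold that Src phosphorylates when it is stretched, was the most abundant gene of this role. It measured 84.6, 80.8, 77.6 and 80.9 TPM in Lv-Ctrl and 107, 105, 109 and 109 TPM in Lv-Piezo1. The groups did not overlap, and the log2 fold change was 0.41 (SE 0.03, adjusted p = 1.1e-05). Its relative Nedd9 measured 23.9 ± 2.44 and 21.0 ± 1.56 TPM, with a log2 fold change of -0.17 (interval -0.36 to 0.01, adjusted p = 0.092), and passed as a fall without Lv-Ctrl replicate 3 (-0.24, adjusted p = 0.0094) or Lv-Piezo1 replicate 4 (-0.22, adjusted p = 0.047). The partners downstream of Cas did not pass: Crk had a log2 fold change of -0.13 (interval -0.43 to 0.17, adjusted p = 0.43) and Crkl of 0.01 (interval -0.20 to 0.23, adjusted p = 0.91). Crk measured 40.7 TPM in Lv-Ctrl replicate 3 and 58.1 to 66.7 TPM in the other Lv-Ctrl samples, and without that replicate it passed as a fall (-0.28, adjusted p = 0.0069). Src, the kinase that pairs with focal adhesion kinase, measured 44.4 ± 2.72 and 42.5 ± 1.29 TPM (log2 fold change -0.06, adjusted p = 0.30).

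Paxillin, Git1, Arhgef7 and Pak1, which bind each other in 1 chain, each rose. Paxillin (Pxn), the adaptor that docks kinases at the adhesion, went from 28.1 ± 1.86 to 43.8 ± 2.19 TPM (log2 fold change 0.62, adjusted p = 1.7e-05). The paxillin-binding Git1, its exchange-factor partner Arhgef7 (beta-Pix) and the kinase they recruit, Pak1, had log2 fold changes of 0.43, 0.29 and 1.00. Pak1 measured 39.7, 40.2, 36.4 and 40.4 TPM in Lv-Ctrl and 79.0, 78.9, 79.3 and 79.6 TPM in Lv-Piezo1. Its value of 0.9991 lay just under the fold threshold, and it passed at 1.01 without Lv-Ctrl replicate 1, 2 or 4 and at 1.0006 and 1.0007 without Lv-Piezo1 replicate 1 or 2. The vinculin-binding adaptor Sorbs3 (vinexin) rose by a log2 fold change of 0.18 (adjusted p = 0.012), and this call was lost after median-ratio scaling, at 0.02.

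Of the 8 zyxin family and Ena/VASP genes, 4 rose (50%), none fell and 4 did not pass, and no gene passed the fold threshold. The share of rises lay near the 41.9% of all tested genes, of which 16.3% fell. The summed level was 563 to 620.5 TPM in Lv-Ctrl and 688 to 730.3 TPM in Lv-Piezo1, and the median log2 fold change was 0.18, close to the all-gene median of 0.14. Mena (Enah), which helps actin filaments to grow at the adhesion, was the most abundant, at 239.8, 243, 202 and 235 TPM in Lv-Ctrl and 243, 233, 255 and 266 TPM in Lv-Piezo1. These groups overlapped, with a log2 fold change of 0.12 (interval -0.03 to 0.26, adjusted p = 0.15). Vasp, of the same family, measured 104, 106, 93.1 and 98.6 TPM against 144, 143, 148 and 155 TPM. It lay apart in every sample and had the largest change of this role, at a log2 fold change of 0.55 (SE 0.05, adjusted p = 1.1e-05), and Evl, the least abundant of the family, rose by 0.40.

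Zyxin (Zyx), which moves to strained stress fibres, went from 163 ± 7.05 to 193 ± 3.92 TPM (log2 fold change 0.24), and Trip6 from 50.04 ± 2.00 to 61.3 ± 2.56 TPM (log2 fold change 0.29), and neither passed after median-ratio scaling. The other LIM proteins of the zyxin family did not pass on the deposited values. Ajuba and Limd1, which also hold Hippo pathway kinases, had log2 fold changes of -0.13 (interval -0.26 to -0.0035, adjusted p = 0.073) and -0.17 (adjusted p = 0.14). Ajuba passed as a fall without Lv-Ctrl replicate 4 (-0.17, adjusted p = 0.028), and Limd1 without Lv-Ctrl replicate 3 (-0.25, adjusted p = 0.014). Lpp was the least abundant of the family, at 3.70 ± 0.745 and 2.85 ± 0.518 TPM, with a log2 fold change of -0.28 and an interval from -0.60 to 0.03 (adjusted p = 0.11).

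The muscle-type LIM and actin-bundle role was drawn with earlier results of these data known. All 9 of its genes that were tested rose at an adjusted p below 0.05 without overlap, 3 of them past the fold threshold. Of all tested genes 41.9% rose, and 4.91% rose past the fold threshold. The median log2 fold change of the role was 0.88, and its summed level was 1855 to 1917 TPM in Lv-Ctrl and 3078 to 3126 TPM in Lv-Piezo1. Related genes placed elsewhere are not in this count, such as Flnc and Csrp2, which rose, and Mypn (-0.44) and Actn3 (-0.56), which fell. Mypn went from 1.71 to 0.985 TPM and Actn3 from 1.83 to 0.88 TPM, near the floor. Both passed the filter of a mean of at least 1 TPM only through their Lv-Ctrl values, so these falls carry little weight. After median-ratio scaling 8 of the 9 still rose, and Synpo2 did not pass. Smooth muscle markers rose in the same samples, as given above. Pdlim5 (ENH), a PDZ-LIM protein that holds kinases at actin bundles, measured 27.8, 30.2, 25.5 and 28.4 TPM in Lv-Ctrl and 83.5, 81.2, 85.9 and 92.7 TPM in Lv-Piezo1. The Lv-Piezo1 samples were all above 80 TPM, and the fold of the means was 3.07, with a log2 fold change of 1.58 (SE 0.06, adjusted p = 5.4e-08).

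Fhl1, an FHL protein abundant in striated muscle, measured 280.0, 294, 251 and 288 TPM in Lv-Ctrl and 651, 634, 656 and 700.2 TPM in Lv-Piezo1. The groups lay far apart, and the log2 fold change was 1.25 (SE 0.05, adjusted p = 1.3e-07). Its relatives Fhl2 and Fhl3 rose by 0.36 and 0.88 on the log2 scale. Pdlim3 (ALP), which binds alpha-actinin in muscle, was far lower, at 5.54, 6.60, 7.67 and 5.46 TPM in Lv-Ctrl and 13.2, 15.5, 14.0 and 14.1 TPM in Lv-Piezo1. It lay apart between the groups and had the widest relative spread among the 7 genes past the threshold, with a log2 fold change of 1.06 (SE 0.10, adjusted p = 2.1e-05).

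Csrp1, a LIM protein of actin bundles, was the most abundant of the 45 genes per transcript length. It measured 786, 799.9, 782 and 773 TPM in Lv-Ctrl and 1045, 1037, 1062 and 1068 TPM in Lv-Piezo1. The rise was modest but far larger than the spread, with a log2 fold change of 0.42 (SE 0.02, adjusted p = 9.4e-07). Pdlim1 (CLP36), which binds alpha-actinin on stress fibres, went from 561 ± 22.6 to 917 ± 23.2 TPM, a log2 fold change of 0.71. Pdlim7 (Enigma) went from 79.3 ± 6.31 to 159 ± 5.32 TPM, and its log2 fold change was 0.9955, just under the threshold, which it passed at 1.05 without Lv-Ctrl replicate 3, 1.00 without Lv-Piezo1 replicate 3 and 1.01 without Lv-Piezo1 replicate 4. Synpo2 (myopodin) was the least abundant of the 45 genes, at 2.29 ± 0.257 and 3.08 ± 0.305 TPM, and rose by 0.31 (adjusted p = 0.019), a call that was lost with the replicate number as a block (adjusted p = 0.07) and under quantile normalization (0.0992, adjusted p = 0.31). Palladin, the actin-bundle protein encoded by Palld, could not be read by its name. A row named Palldl1, not on the list and looked at after its values were seen, measured 63.9 ± 2.50 and 88.6 ± 4.43 TPM, a log2 fold change of 0.46 (adjusted p = 2.6e-05).

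**Figure D4:**
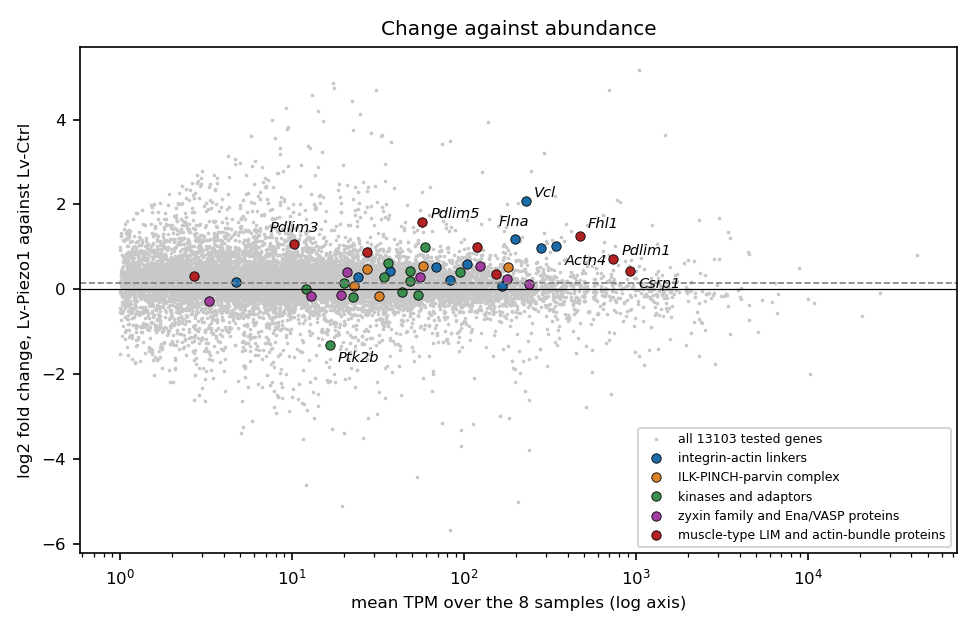
Log2 fold change on the log2(TPM + 1) scale (y axis) against mean TPM over the 8 samples (x axis, log scale) for all 13103 tested genes (grey) and the 45 genes (coloured by role). Most of the 45 genes lie in the right part of the cloud, from 2.68 TPM (Synpo2) to 919 TPM (Csrp1), and above the dashed all-gene median of 0.14, with Ptk2b as the one clear fall.

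Most of the 45 genes were abundant. By mean TPM, 39 of them lay at or above the all-gene median and 14 in the top 10% of tested genes, and their median percentile was 81.1. Their coefficient of variation among 4 samples had a median of 7.99% in Lv-Ctrl, from 1.44% (Csrp1) to 20.2% (Lpp), and of 5.00% in Lv-Piezo1, from 0.407% (Pak1) to 18.2% (Lpp). Without Lv-Ctrl replicate 3, which was low for most of these genes, 31 rose and 5 fell (Ptk2b, Lims2, Crk, Nedd9 and Limd1) at an adjusted p below 0.05, and 6 rose and 1 fell past the fold threshold. Without Lv-Ctrl replicate 2, the sample highest in Acta1 and Ckm, 32 rose and 2 fell, with 7 and 1 past the fold threshold.

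Shares within protein families do not depend on a scaling factor that is common to all genes of a sample. Each gene's TPM was divided by the summed TPM of its listed relatives, for 34 genes in 13 families. In 11 of the 13 families at least 1 share did not overlap between the groups, 22 shares in all. Of these, 12 came from 6 families of 2 genes, where the share of each gene mirrors that of the other, so higher and lower shares are not separate observations. No test was run on the shares, and they have no background over all genes to be read against. The widest shift was in the focal adhesion kinases. Ptk2 made up 44.0 ± 1.38% of their sum in Lv-Ctrl and 70.01 ± 0.702% in Lv-Piezo1, with Ptk2b as the rest, so the order of the pair was reversed in every sample, while the sum itself went from 42.9 to 30.0 TPM.

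Among the FHL proteins, Fhl1 went from 64.6 ± 1.68% to 76.1 ± 0.943% of the sum as Fhl2 went from 31.0 ± 1.55% to 19.8 ± 0.754%. Flna took 68.2 ± 0.447% of the filamin sum in Lv-Ctrl and 77.3 ± 0.181% in Lv-Piezo1. Vasp moved from 28.9 ± 0.620% to 35.1 ± 0.535% of the Ena/VASP sum, against Enah, and Bcar1 from 77.3 ± 1.37% to 83.7 ± 0.861% of the Cas sum, against Nedd9. In the PDZ-LIM family Pdlim1 went from 83.2 ± 0.646% to 78.0 ± 0.434%, and Pdlim5 from 4.16 ± 0.421% to 7.31 ± 0.569%. The alpha-actinin shares moved by only 0.809 percentage points while their sum went from 415.5 to 831 TPM, with Actn4 at 54.7 ± 0.289% and 55.5 ± 0.242%. The parvins and the Crk adaptors overlapped in share between the groups.

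**Figure D5:**
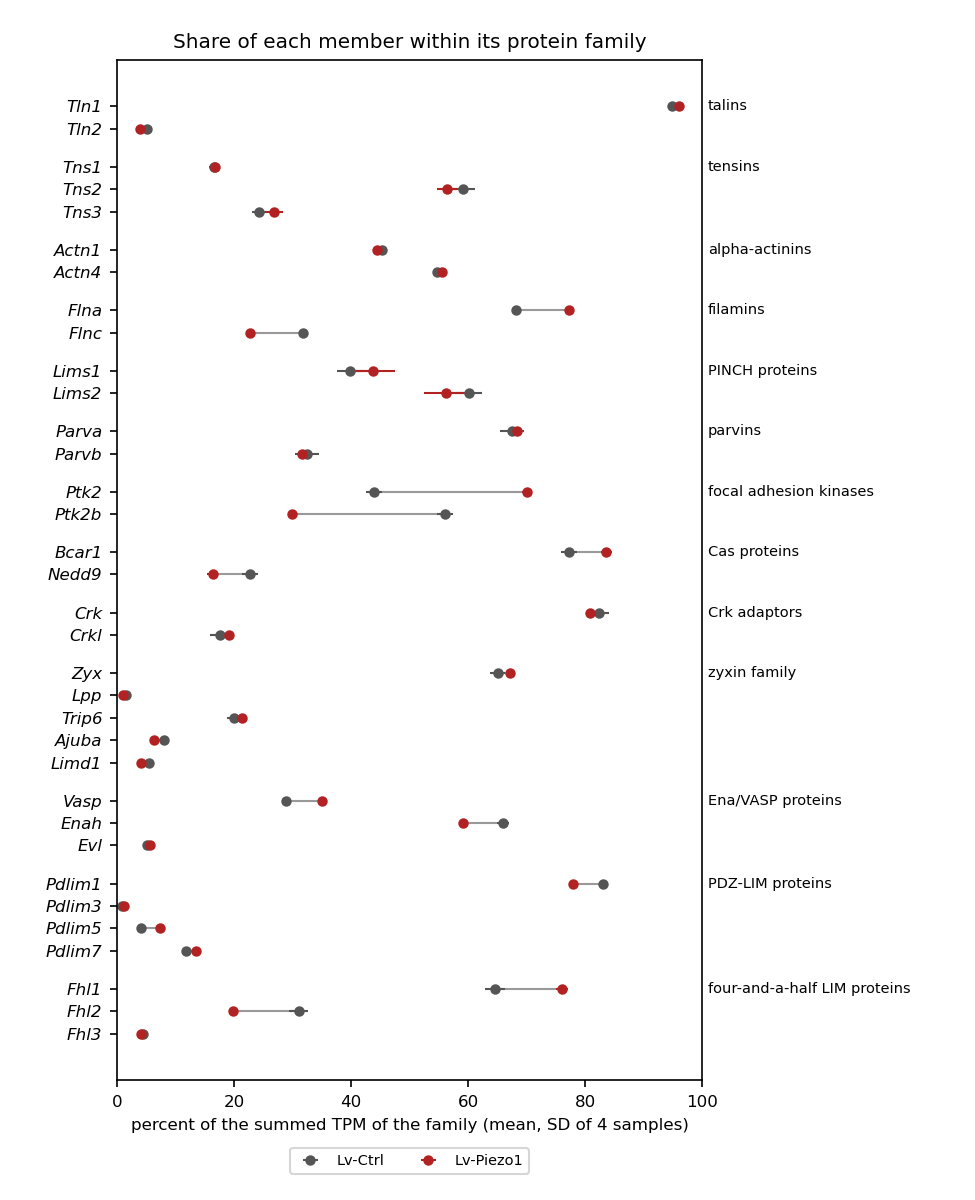
Share of each gene in the summed TPM of its family (x axis, percent, mean and SD of 4 samples) in Lv-Ctrl (grey) and Lv-Piezo1 (red), for 34 genes in 13 families. The longest line joins 44.0% and 70.01% for Ptk2, with its mirror image for Ptk2b, and the parvins and Crk adaptors show almost no line.

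Other genes of the same sites were read from a list of 66 further focal adhesion genes, of which 64 had a row and 50 were tested. Of these 29 rose (58%), 6 fell (12%) and 15 did not pass at an adjusted p below 0.05, beside 41.9% and 16.3% of all tested genes. The median log2 fold change was 0.23, beside 0.14 over all tested genes. The falls include Mypn and Actn3, which passed the filter only through their Lv-Ctrl values. Past the fold threshold 6 rose (12%) and none fell, beside 4.91% and 2.76% of all tested genes. Csrp2, a LIM protein of the Csrp1 family, measured 11.2 ± 1.21 and 36.4 ± 2.84 TPM, a log2 fold change of 1.61. Sorbs2, of the vinexin family, measured 5.06 ± 0.877 and 13.9 ± 0.898 TPM, a log2 fold change of 1.31. Fblim1 (migfilin), which binds filamin and kindlin, measured 6.93 ± 0.620 and 17.3 ± 0.531 TPM, a log2 fold change of 1.21. None of these 3 overlapped between the groups, and 3 of the 6 genes were left past the threshold after median-ratio scaling.

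Of the 26 integrin subunits, to which the linkers attach, 14 were tested, 5 rose (35.7%), 3 fell (21.4%) and 6 did not pass, near the 41.9% and 16.3% of all tested genes, with a median log2 fold change of 0.05. Itgb3, a vitronectin receptor subunit, rose from 0.253 ± 0.111 to 1.81 ± 0.433 TPM (log2 fold change 1.16). This gene lay near the floor and passed the filter of a mean of at least 1 TPM only through its Lv-Piezo1 values. Its place among the 5 rises therefore carries little weight. Itga7, a laminin receptor subunit of muscle, fell from 109 ± 11.6 to 47.1 ± 3.62 TPM (log2 fold change -1.19). The difference between the integrins and the 45 genes was not tested.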

How the data were processed

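RNA-seq was analysed in 8 samples of AFCs under CMS, 4 labelled Lv-Ctrl and 4 labelled Lv-Piezo1, grouped by the sample labels. The authors aligned filtered reads to the rat genome (HISAT2), built transcripts with StringTie and deposited TPM per gene, although the paper's methods describe FPKM and DESeq, and the submitters' processing notes name DESeq2 and build mm10 while the gene identifiers are those of rat. The annotation and the versions of HISAT2 and StringTie were not given in the sources used here. Every per-sample column was used. Genes with a mean of at least 1 TPM were taken to log2(TPM + 1), and a comparison of Lv-Piezo1 with Lv-Ctrl was fitted by limma 3.58.1 under R 4.3.3 (empirical Bayes with a trend, Benjamini-Hochberg adjustment over all tested genes, no block). The threshold asked for both an adjusted p below 0.05 and a log2 fold change of 1 or more in size. "Rose" and "fell" mean an adjusted p below 0.05. Tested on simulated data for these 13103 genes, the fit found 195 of 200 genes changed by 1.5 on the log2 scale (97.5%). The changed genes were drawn without those of low mean level, so this share does not cover genes with low TPM. Smaller changes were not simulated. Alternatives were a pseudocount of 0.1, no filter, a mean of at least 5 TPM, median-ratio scaling, quantile normalization, a replicate block, moderation without a trend and leaving out each replicate. Per-sample values were given for genes past the threshold and for the gene with the highest mean TPM or the largest change of each role, beside Piezo1 and the genes close to the threshold, and up to 3 genes per direction past the threshold were named from each further list. Gene lists were written from general knowledge, and the 45 genes, roles and lists were chosen with earlier results of these data known. The result of 1 further gene list is not reported here. Promoters are those of RefSeq (GRCr8).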

Additional observations from a re-analysis of the deposited data

Results flagged for a closer look

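In each gene and group the highest or lowest of the 4 samples was checked for a gap to the others above Dixon's 95% critical value, which chance passes in about 1 of 20 groups, and 6 of 90 groups passed. Tln2 measured 5.59 TPM in Lv-Piezo1 replicate 4 and 4.82 to 4.84 TPM in the other 3 samples. Src measured 40.52 TPM and Parvb 29.24 TPM in Lv-Piezo1 replicate 2, below 42.96 to 43.29 TPM and 32.43 to 32.97 TPM in the others. Lims1 measured 19.15 TPM and Pak1 36.41 TPM in Lv-Ctrl replicate 3, below 23.31 to 23.81 TPM and 39.73 to 40.35 TPM in the others. Lims2 measured 35.08 TPM in Lv-Ctrl replicate 2, above 33.29 to 33.46 TPM in the others. Of these genes Pak1, Parvb and Lims2 passed an adjusted p below 0.05 between the groups, and Tln2, Src and Lims1 did not.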

How the results depend on the processing

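Of the 45 genes, 7 to 9 passed the adjusted p and fold threshold when each replicate was left out in turn (7 with all samples), 33 to 36 passed an adjusted p below 0.05 (33 with all samples) and 34 to 37 did not overlap (34 with all samples), and the log2 fold change of Piezo1 was 0.33 to 0.43. A pseudocount of 0.1 gave 9 genes past the threshold, adding Pak1 and Pdlim7. No filter and moderation without a trend each gave the same 7 genes, and a mean of at least 5 TPM tested 42 genes and gave the same 7. The count of other focal adhesion genes past the threshold was 3 under median-ratio scaling in place of 6. A fold change reversed its sign only in genes that did not pass the test: under median-ratio scaling Ptk2 (-0.0052), Lims1 (-0.0909), Fermt2 (-0.0943), Crkl (-0.1354) and Enah (-0.0452); under quantile normalization Tln2 (-0.0462), Lims1 (-0.0747) and Crkl (-0.1652); and, with a replicate left out, Lims1 (from -0.0156 to 0.1109, below 0 without Lv-Ctrl replicate 3 or Lv-Piezo1 replicate 4) and Crkl (from -0.0541 to 0.0659, below 0 without Lv-Ctrl replicate 3 or Lv-Piezo1 replicate 3 or 4). Both scalings remove the shift of the all-gene median. Samples with equal replicate numbers did not deviate together (r from -0.058 to -0.012), and none correlated best with its own number. With a replicate block, 7 genes passed the threshold and 32 an adjusted p below 0.05, with Synpo2 lost (adjusted p = 0.07). Median-ratio scaling cancels in the family shares. In alternatives chosen after seeing the data, 22 shares did not overlap under quantile normalization, in 10 families in place of 11, and 22 to 26 with each replicate left out. Without read counts, counting error could not be separated from the spread between samples.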
